A study of Homo sapiens with 12 samples.

Results

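Transcript levels were compared between HepG2 cells depleted of the macroH2A histone variants and control HepG2 cells, both exposed to the inflammatory cytokine TNFα. The comparison takes 6 of the 12 libraries of the study, 3 labelled HepG2_DKD_TNFa against 3 labelled HepG2_CTL_TNFa, chosen by their labels, and covers all genes of the deposited count table. HepG2 is an established human hepatoma line. The control line (CTL) stably expresses control shRNAs, and the knock-down line (DKD) shRNAs that target macroH2A1 and macroH2A2, both introduced with retroviral pRetroSUPER vectors. Cells of both lines spent a night at 0.5% serum and then received 20 ng/mL of TNFα for 24 hours. The other 6 libraries come from the same lines given the vehicle alone for 24 hours. The series title names the inflammatory response in cancer, and the comparison asks how the lines differ while that response is under way.

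MacroH2A proteins are variants of histone H2A that carry a large globular macro domain and are found in silent heterochromatin, on the inactive X chromosome and at some active genes. In chromatin they are known both to hold genes silent and to help the expression of others. TNFα acts through its receptors and the transcription factor NF-kB, and in hepatocytes inflammatory cytokines change the output of secreted plasma proteins. HepG2 cells keep many hepatocyte functions, such as the secretion of albumin, fibrinogen and apolipoproteins.

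The table listed 35984 genes, of which 11739 had no count in the 6 libraries, and 16118 genes had enough counts to be tested. Levels are given as CPM, counts scaled to a common library total, in the order of replicates 1, 2 and 3. Differences are log2 values, knock-down minus control, with an approximate standard error (SE). Each SE was computed back from the edgeR test below, as the absolute difference divided by the square root of the F statistic. A gene was called at a Benjamini-Hochberg adjusted p under 0.05 in edgeR's quasi-likelihood test, and every adjusted p below is from that test over all 16118 genes unless another fit is named. No label states that replicates were grown as separate cultures, so each p-value reflects the spread among these libraries only, and that spread may be technical. Nor is it stated if each line was a pool of transduced cells or 1 clone, and an effect of the knock-down cannot be told apart from other differences between the lines. FGA, CYP8B1, ABCB4, ABCC2 and the genes given as not called were picked after their values were seen.

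The 6 libraries held 40427200 to 41526442 counts, so that 3 counts, taken as the floor, stood for 0.072 to 0.0749 CPM. Knock-down replicate 1 stood apart. It lay at 65.2 on the first principal component of the 6 libraries (42.5% of the variance), against 12.2 and 7.80 for the other knock-down libraries and -38.7 to -9.43 for the control libraries. Its chi-square per degree of freedom was 66.7 and 74.6 against the other knock-down libraries, which gave 17.5 against each other. Control replicate 1 gave 28.6 and 34.1 against the other control libraries, which gave 16.8 against each other. On the second component (29.85% of the variance) control replicate 1 lay at -41.0 and knock-down replicate 1 at -23.8. The other control libraries lay at -7.20 and -3.87, and the other knock-down libraries at 34.9 and 41.0. All 12 hepatocyte genes chosen to check the cell type were expressed in each library, among them AFP, APOB and HNF4A. Summed markers of cholangiocytes and progenitors ran from 1496 to 1562 CPM in control and 1432 to 1591 CPM in knock-down cells, and endothelial markers from 4.15 to 5.55 and 3.52 to 4.38 CPM, with CDH5, TEK, CLEC4G and ERG at 0 in all 6 libraries. Mesenchymal markers summed to 49.5 to 56.9 and 56.0 to 60.8 CPM, with THY1 at 0. Blood and immune markers summed to 968 to 1080 and 957 to 1263 CPM, nearly all of it LYZ, with CD3E, MS4A1 and PPBP at 0. Of 31 tested markers of these 4 other cell types 3 were called, against 6.24% of all tested genes. The haemoglobin gene HBA1 was higher at 0.293, 0.293 and 0.144 CPM in control and 0.724, 0.913 and 0.997 CPM in knock-down cells (1.84, SE 0.29, adjusted p = 0.00317), in all 22 alternative fits. CD4, a surface protein of T cells, was lower (-1.72, SE 0.39, adjusted p = 0.0233), a call lost without any 1 control library or without knock-down replicate 1 or 2 (adjusted p of up to 0.0979). The actin gene ACTA2 of contractile cells was higher (0.65, SE 0.15, adjusted p = 0.0272), a call lost without control replicate 2 or 3 or knock-down replicate 1 or 2 (adjusted p of up to 0.123). Their part in the results was not tested.

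Both target transcripts were low in each knock-down library. MACROH2A1 (chromosome 5, 135334381 to 135399887, in RefSeq GRCh38.p14, the source of all gene positions) stood at 256, 268 and 279 CPM in control and 44.2, 63.5 and 58.8 CPM in knock-down cells. The difference was -2.27 (SE 0.20, adjusted p = 9.6e-05), and the lowest level was in knock-down replicate 1. MACROH2A2 (chromosome 10, 70052846 to 70112282) stood at 47.1, 41.0 and 51.1 CPM in control and 4.64, 3.96 and 3.28 CPM in knock-down cells, a difference of -3.55 (SE 0.16, adjusted p = 8.2e-07). The groups did not overlap for either gene. Of 22 tested genes for H2A variants, linker histones and their chaperones these were the only 2 called (6.24% of all tested genes were called), and with the replicate number as a block in the model 4 were called lower and none higher. Neither H2AX (0.51, SE 0.30, adjusted p = 0.429), a variant of the DNA damage response, nor H2AZ1 (-0.03, SE 0.15, adjusted p = 0.954), a variant of promoters, passed the test.

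Across all tested genes 1005 were called (6.24%), of which 635 were higher (3.94%) and 370 lower (2.3%) in knock-down cells. The median absolute difference of the called genes was 0.736, and 182 of the higher and 169 of the lower genes differed by less than 1.5-fold. At least 2-fold differences numbered 254 and 96, and at least 8-fold differences 28 and 25. In all 1005 called genes the groups did not overlap, from which it follows that the 3 pairs of equal replicate number differed in 1 direction. Among all tested genes the groups did not overlap for 2131 higher (13.2%) and 1958 lower (12.1%). With the replicate number as a block 1716 genes were higher (10.6%) and 1417 lower (8.79%), and all 1005 calls were kept. The fits that left out 1 library, here and below, held no block. Without knock-down replicate 1 the counts were 450 and 232. Without control replicate 1, 2 or 3 they were 395 and 238, 359 and 213, and 351 and 226.

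**Figure D1:**
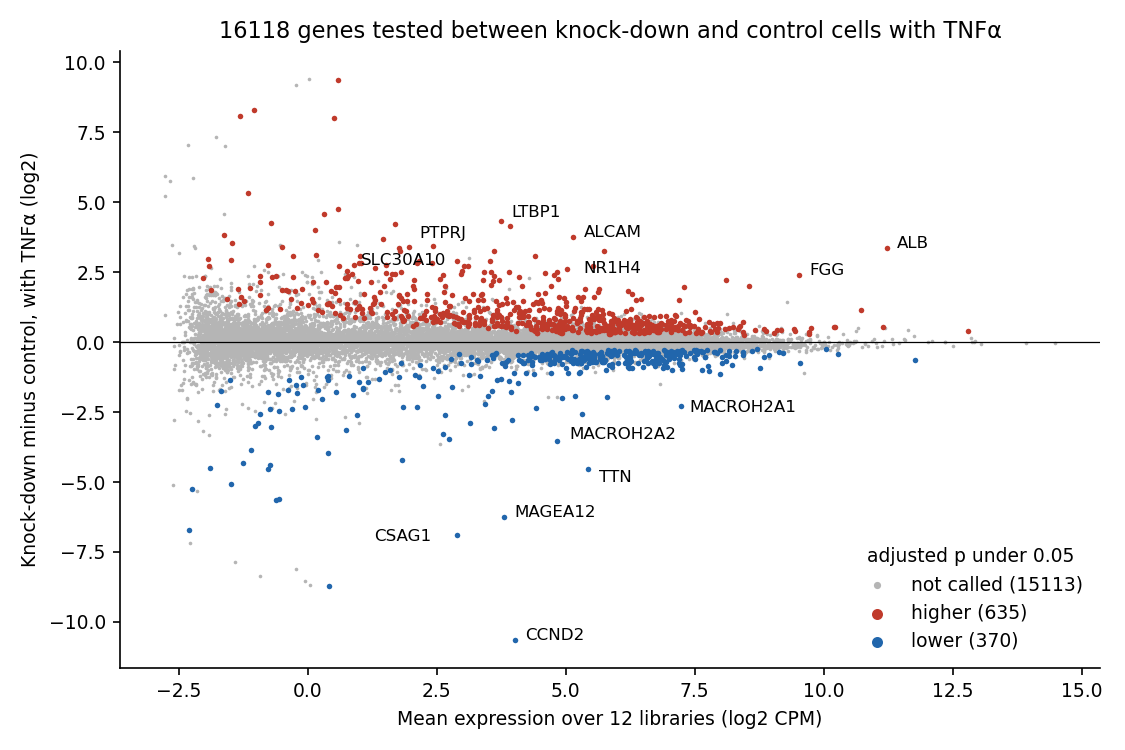
Difference between knock-down and control cells with TNFα (log2, vertical axis) against mean expression over all 12 libraries (log2 CPM, horizontal axis), 1 point a gene. The 635 genes called higher are red and the 370 called lower blue, with ALB the most abundant of the labelled genes and CCND2 the one with the lowest fitted value.

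The genes for the bile acid receptor and for a bile acid exporter subunit were higher in knock-down cells. NR1H4 (chromosome 12, 100473866 to 100564414) encodes FXR, the nuclear receptor that senses bile acids and represses their synthesis. It stood at 6.93, 6.16 and 4.58 CPM in control and 47.4, 35.3 and 26.2 CPM in knock-down cells, with the highest level of each group in replicate 1 and no overlap between the groups. The difference was 2.62 (SE 0.23, adjusted p = 0.000102). RXRA, the partner with which FXR binds DNA, was at 45.3, 37.1 and 44.3 against 73.4, 54.5 and 72.9 CPM. Its difference was 0.66 (SE 0.13, adjusted p = 0.0116), and its call was lost without control replicate 2 or knock-down replicate 3, with an adjusted p of up to 0.0637. SLC30A10 (chromosome 1, 219910445 to 219959098), a transporter that exports manganese from cells, stood at 2.56, 2.32 and 1.58 CPM in control and 24.6, 14.5 and 9.58 CPM in knock-down cells. It was higher by 2.91 (SE 0.33, adjusted p = 0.000475), again highest in replicate 1 of each group. FTH1, the ferritin heavy chain that stores iron, was the other metal gene called higher (adjusted p = 0.0388, or 0.000148 with the block). Its call was lost in 8 of the 12 fits that left out 1 library (adjusted p of up to 0.159).

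Of 19 tested genes of bile acid synthesis, transport and FXR, 6 were higher and 1 lower (8 and 3 with the block), with a median difference of 0.392 against 0.002 over all tested genes. Called members made up 36.8% of the list, against 6.24% of all tested genes. Without knock-down replicate 1 the median was 0.192, and 4 members were higher and none lower. Without any 1 of the control libraries 3 members were higher. SLC51A, a subunit of the exporter that moves bile acids across the basolateral membrane, stood at 1.83, 1.49 and 1.63 CPM in control and 11.8, 11.8 and 9.48 CPM in knock-down cells (2.74, SE 0.16, adjusted p = 4.88e-06). Its groups were far apart in all 3 pairs. CYP27A1, the sterol hydroxylase of the alternative route of bile acid synthesis, was at 75.2, 73.7 and 84.8 against 169, 140.3 and 143 CPM (0.95, SE 0.09). The exporter gene ABCC3 was called higher (0.95, SE 0.21, adjusted p = 0.0233, or 4.89e-05 with the block). That call was lost without any 1 of the control libraries or without knock-down replicate 2 or 3 (adjusted p of up to 0.102). CYP8B1, which directs synthesis to cholic acid, was higher by 2.02 (SE 0.51, adjusted p = 0.0419), but by 1.36 and uncalled without knock-down replicate 1. Its call was lost in 8 of the 12 fits that left out 1 library. The calls of the phospholipid exporter ABCB4 (0.45, adjusted p = 0.0239) toward higher and of the canalicular exporter ABCC2 (-0.42, adjusted p = 0.0269) toward lower levels were lost in 6 and 5 of these fits, ABCB4 without any 1 of the libraries with TNFα and ABCC2 without any of them but control replicate 1 (adjusted p of up to 0.126 and 0.104). NR0B2 (SHP), a classical FXR target, stood at 57.5, 74.8 and 67.8 CPM in control and 77.7, 74.4 and 81.2 CPM in knock-down cells, and the groups overlapped.

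Of the tested genes for secreted plasma proteins in 5 lists, between 2 and 7 a list were called higher and none lower. The called share was 10% to 40% a list, against 3.94% higher and 2.3% lower of all tested genes. Without the block most members of each list were not called. With it most members were called in the lists of plasma carriers (6 higher and none lower of 10), coagulation, acute-phase and complement genes. Albumin, the main carrier protein of plasma, led the called members. ALB (chromosome 4, 73404287 to 73421482) stood at 309, 229 and 213 CPM in control and 3042, 2438 and 2163 CPM in knock-down cells, a difference of 3.35 (SE 0.25, adjusted p = 2.97e-05). The lowest knock-down library was far above the highest control library. In RNA of whole cultures a change in the number of cells that express a gene and a change in the RNA of each cell cannot be told apart. The retinol carrier RBP4 (0.79, SE 0.11) and transthyretin, TTR (0.53, SE 0.09), which carries thyroid hormone, were also higher. Haem-binding HPX was low at 0.341, 0.342 and 0.312 CPM in control and 1.07, 1.23 and 1.60 CPM in knock-down cells, and its call (adjusted p = 0.0299) was lost without any 1 of the libraries with TNFα or without CTL untreated replicate 2 (adjusted p of up to 0.114). ALB, RBP4, TTR and HPX were 4 of 10 tested plasma carriers, with a median of 0.662, and none was lower.

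Fibrinogen, the protein of the blood clot, is built from 3 chains whose genes FGA, FGB and FGG are neighbours on chromosome 4, and all were higher. FGG stood at 106, 143 and 98.6 CPM in control and 837, 552 and 455 CPM in knock-down cells (2.40, SE 0.24, adjusted p = 0.000217). FGB stood at 21.6, 28.4 and 21.8 and 109.7, 93.0 and 78.3 CPM (1.97, SE 0.22, adjusted p = 0.000501), and FGA at 36.4, 38.2 and 27.0 and 271, 112 and 89.7 CPM (2.22, SE 0.43, adjusted p = 0.0104). In each of the 3 genes the highest library was knock-down replicate 1. Without it FGA was higher by 1.57, and without control replicate 3 the FGA call was lost (adjusted p = 0.0581). SERPINC1, which encodes the clotting inhibitor antithrombin, was higher too (1.90, SE 0.27), as was protein C, PROC (0.65, SE 0.08). Of 25 tested coagulation genes 7 were higher and none lower, or 14 and none with the block. Their median was 0.539, or 0.248 without knock-down replicate 1, where 5 were higher, and 4 were higher without control replicate 3.

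Of 17 tested acute-phase genes 5 were higher and none lower (10 and none with the block, 3 and none without knock-down replicate 1 or control replicate 2, 2 and none without control replicate 3), with a median of 0.588. ITIH2, a heavy chain that binds hyaluronan, stood at 125, 124 and 103 CPM in control and 436, 525 and 463 CPM in knock-down cells (2.02, SE 0.13, adjusted p = 1.67e-05). Haptoglobin, HP, which binds free haemoglobin, was low but separate at 2.10, 2.44 and 2.45 against 7.52, 7.81 and 7.22 CPM (1.69, SE 0.15, adjusted p = 0.000101). CRP, SAA1, LBP, ITIH4 and LCN2 did not pass the filter on low counts. Of 21 tested complement genes 4 were higher and none lower (11 and 1 with the block), with a median of 0.415, or 0.218 without knock-down replicate 1. Without control replicate 1 or 2 a single complement gene was called, and 2 without control replicate 3 or knock-down replicate 2 or 3. Their leading member MASP1, a protease of the lectin pathway, stood at 3.54, 2.91 and 2.78 CPM in control and 20.7, 19.01 and 13.1 CPM in knock-down cells (2.51, SE 0.27, adjusted p = 0.000381). Of 20 tested genes for apolipoproteins and lipoprotein assembly, APOA1 (0.55, SE 0.08) and APOC3 (0.87, SE 0.14) were higher and none lower, with a median of 0.428 (8 higher and none lower with the block).

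Among 24 tested liver transcription factors only RXRA was called (4.17%, against 6.24% of all tested genes). With the block 8 were higher and 1 lower. The median was 0.269, or 0.151 without knock-down replicate 1. HNF4A, a master regulator of hepatocyte genes, stood at 272, 267 and 297 CPM in control and 372, 328 and 348 CPM in knock-down cells (0.33, SE 0.10, adjusted p = 0.0807, or 0.018 with the block).

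**Figure D2:**
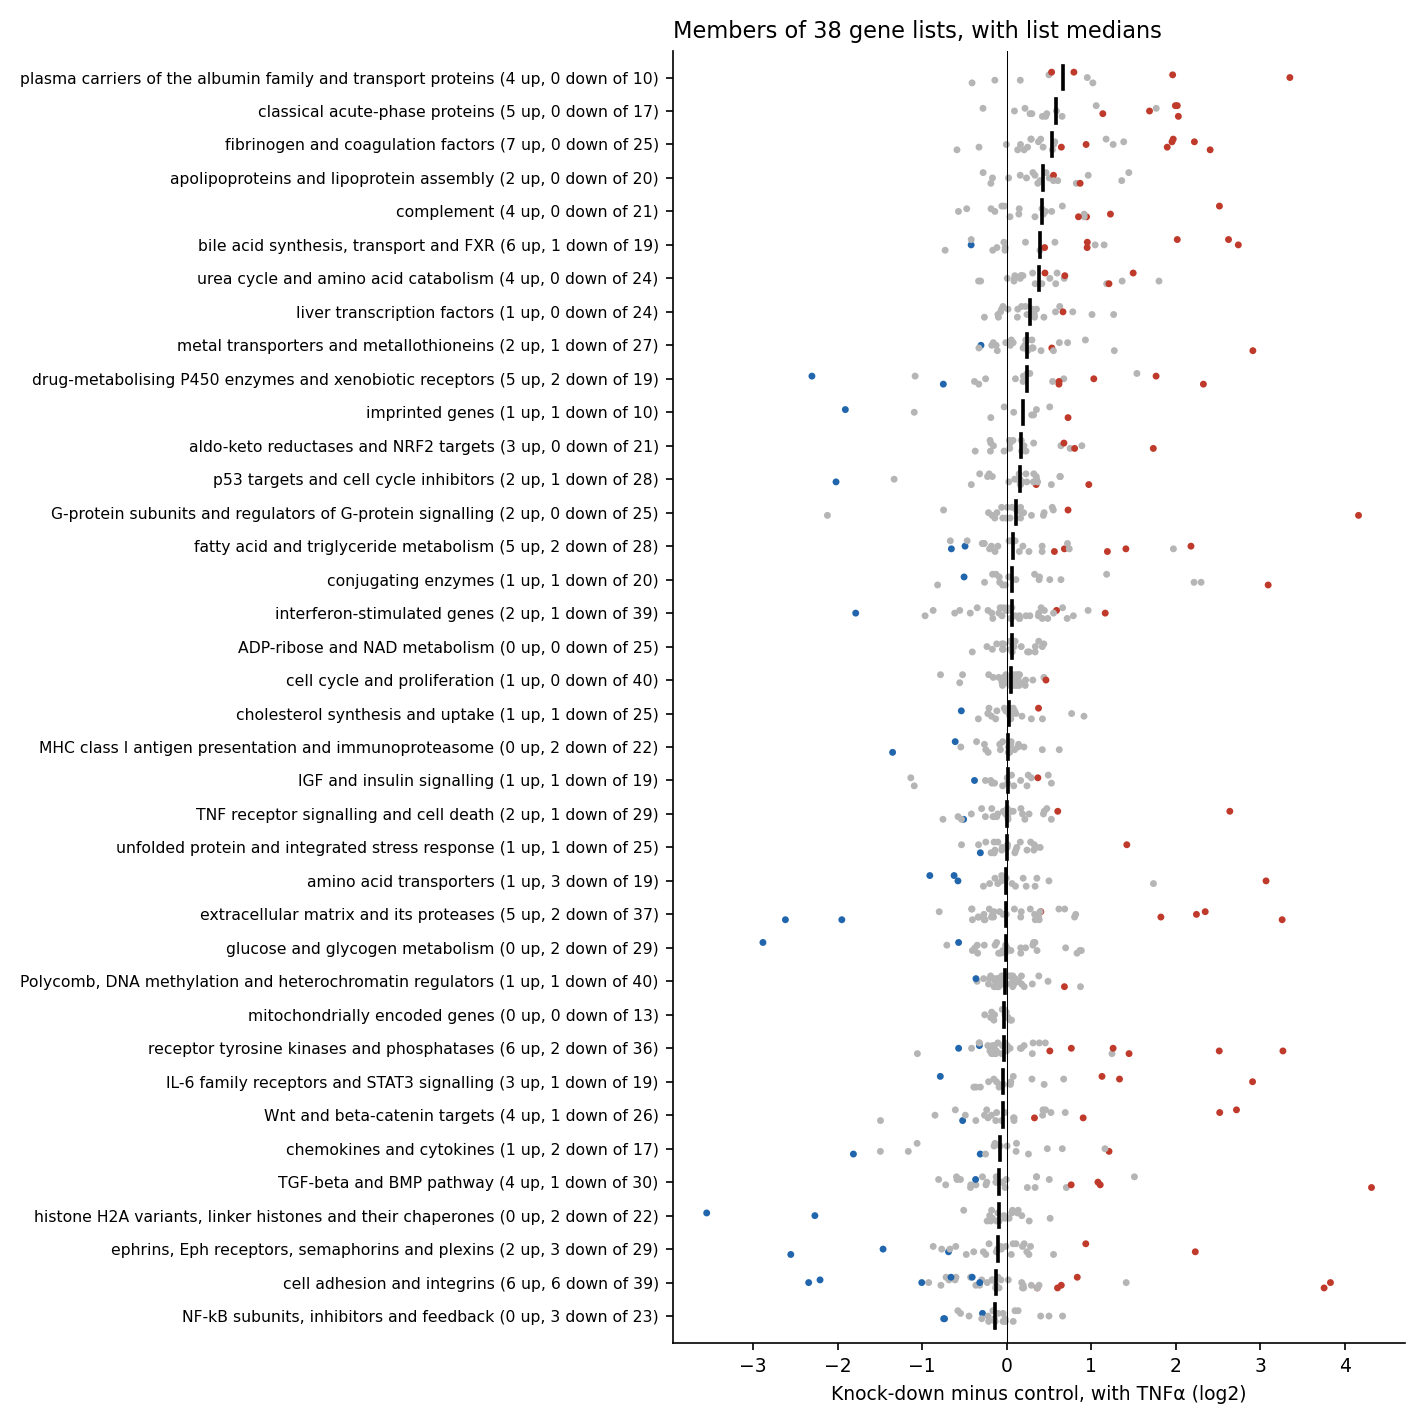
Difference between knock-down and control cells with TNFα (log2, horizontal axis) for the tested members of 38 gene lists, 1 row a list, sorted by list median (black bar). Red points were called higher, blue points lower and grey points neither, and the liver lists at the top hold members that lie mostly above 0.

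Promoter windows of the plasma protein genes are shown because these genes were higher together. Each runs from 250 bases before to 50 after a transcript start in RefSeq GRCh38.p14, written 5′ to 3′ on the gene's strand. Capitals mark GTTAAT on either strand, a sequence known from promoters of liver genes. The windows are chr4:73404037-73404336 (plus strand), chr4:154590693-154590992 (minus), chr4:154562730-154563029 (plus) and chr4:154612607-154612906 (minus).
ALB: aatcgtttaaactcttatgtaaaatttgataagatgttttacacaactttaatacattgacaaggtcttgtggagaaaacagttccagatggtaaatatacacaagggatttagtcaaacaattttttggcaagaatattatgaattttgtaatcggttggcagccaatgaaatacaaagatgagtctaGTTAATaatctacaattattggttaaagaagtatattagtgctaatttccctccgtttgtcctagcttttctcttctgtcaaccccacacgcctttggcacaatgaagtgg
FGA: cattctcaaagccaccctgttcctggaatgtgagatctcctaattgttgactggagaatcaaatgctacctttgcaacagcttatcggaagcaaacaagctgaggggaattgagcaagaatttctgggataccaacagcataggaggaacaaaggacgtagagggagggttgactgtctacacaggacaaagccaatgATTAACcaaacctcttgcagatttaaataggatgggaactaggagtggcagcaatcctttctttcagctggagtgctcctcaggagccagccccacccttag
FGB: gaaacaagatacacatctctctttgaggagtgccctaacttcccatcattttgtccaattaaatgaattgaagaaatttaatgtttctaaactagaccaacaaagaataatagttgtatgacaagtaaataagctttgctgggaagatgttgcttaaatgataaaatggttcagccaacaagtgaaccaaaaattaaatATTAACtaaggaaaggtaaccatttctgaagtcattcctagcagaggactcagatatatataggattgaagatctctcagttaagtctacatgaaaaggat
FGG: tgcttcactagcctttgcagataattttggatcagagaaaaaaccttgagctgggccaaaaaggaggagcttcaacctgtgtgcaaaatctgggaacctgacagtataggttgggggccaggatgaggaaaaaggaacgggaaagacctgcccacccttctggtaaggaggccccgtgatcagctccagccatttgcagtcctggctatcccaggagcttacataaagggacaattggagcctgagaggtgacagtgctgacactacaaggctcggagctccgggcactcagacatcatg
GTTAAT occurred in the windows of ALB, FGA and FGB and in none of FGG, while the fitted difference of FGG was the largest of the 3 fibrinogen genes.

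Over all 35116 windows 6.88% held GTTAAT on either strand, and so did 6.27% of the 11035 tested genes with a window. The 6 lists of plasma carriers, coagulation, acute-phase, complement, apolipoprotein and bile acid genes were searched where a member had a window. Members without a window, called ones among them, were left out. GTTAAT was found for 6 of the 16 searched members called higher (37.5%) and 18 of the 67 other searched members (26.9%). The 6 were ALB, FGA, FGB, NR1H4, PROC and SAA4. The SAA4 call was lost without any 1 control library or knock-down replicate 2 or 3 (adjusted p of up to 0.0922), and kept with the block (adjusted p = 4.29e-05). In all 5 motifs were searched on both strands, and the one shown was picked after its matches were seen. A full palindrome that contains GTTAAT was in 0.0057% of windows and in none of the 16. A shorter form of this palindrome was in 0.322% of windows and in 1 of the 16 (FGA) against 6 of the 67. Of the motifs of NF-kB, the classical site of the kappa light chain enhancer was in 0.191% of windows and the degenerate site in 11.3%, and neither was in any of the 16. A match describes letters only.

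Drug and amino acid metabolism also differed. Of 19 tested cytochrome P450 and xenobiotic receptor genes 5 were higher and 2 lower (36.8% called, against 6.24% of all tested genes). Their median was 0.241, or 0.113 without knock-down replicate 1. Without any 1 control library or knock-down replicate 2, 3 were higher. CYP4F12, a fatty acid hydroxylase, stood at 9.15, 8.14 and 9.60 CPM in control and 38.2, 28.6 and 24.6 CPM in knock-down cells (1.77, SE 0.16, adjusted p = 0.000115). Its relative CYP4F3 was higher by 2.33 (SE 0.36), with 26.8 CPM in knock-down replicate 1 against 13.5 and 10.5 in the others. CYP2B6, an enzyme of drug oxidation, was lower at 2.12, 1.52 and 1.58 against 0.325, 0.336 and 0.389 CPM (-2.30, SE 0.31, adjusted p = 0.00141). AKR1B10, an aldo-keto reductase abundant in liver tumours, was higher (1.73, SE 0.21), and so was haem oxygenase, HMOX1 (0.80, SE 0.11). Of 24 tested urea cycle and amino acid genes 4 were higher (16.7%) and none lower (11 and none with the block), with a median of 0.376. They were MAT1A (1.49, SE 0.17), which makes S-adenosylmethionine, BHMT (1.21), which remethylates homocysteine, and PHGDH (0.69) and PSAT1 (0.45) of serine synthesis. The PSAT1 call (adjusted p = 0.0189, or 0.00165 with the block) was lost without any 1 control library or without knock-down replicate 1 or 2 (adjusted p of up to 0.0822).

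Of 28 tested genes of fatty acid and triglyceride metabolism 5 were higher and 2 lower (11 and 5 with the block). The called share was 25%, against 6.24% of all tested genes. Both lower members, SCD and ACSL5, lie on a part of chromosome 10 where most genes were lower. Outside that part and 3 chromosome segments of mostly higher genes, with p-values adjusted over the genes outside, 4 members were higher and none lower. Without knock-down replicate 1, 4 were higher and 1 lower. The carboxylase ACACB (1.41, SE 0.11), which curbs fatty acid oxidation, the lipase LIPG (2.18, SE 0.22) and the acyl-CoA synthetase ACSL1 (1.19, SE 0.22) were higher. The desaturase gene SCD was lower at 3938, 3538 and 3264 CPM in control and 2537, 2272 and 2013 CPM in knock-down cells (-0.65, SE 0.09, adjusted p = 0.00191). PPP1R3B, the subunit that brings phosphatase 1 to glycogen, stood at 17.4, 12.98 and 12.8 CPM in control and 2.10, 1.90 and 1.85 CPM in knock-down cells (-2.88, SE 0.24, adjusted p = 6.42e-05). Of 29 tested glucose and glycogen genes 2 were lower and none higher (6 and 4 with the block), a called share of 6.9%.

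Among called genes with a mean log2 CPM of at least 2, the largest rises held genes of the matrix, adhesion and signalling beside liver genes. LTBP1 (chromosome 2, 32946953 to 33399509), which binds latent TGF-beta in the matrix, stood at 1.17, 1.44 and 1.51 CPM in control and 21.9, 31.1 and 29.1 CPM in knock-down cells (4.31, SE 0.24, adjusted p = 3.47e-06). GNG12 (chromosome 1, 67701475 to 67833467), a G-protein gamma subunit, stood at 1.80, 2.37 and 1.61 and 29.7, 39.0 and 34.8 CPM (4.16, SE 0.22). The adhesion molecule gene ALCAM (chromosome 3, 105366909 to 105576900) stood at 5.07, 4.42 and 3.84 and 74.3, 59.3 and 46.2 CPM (3.75, SE 0.25). In each of the 3 genes every knock-down library was over 8-fold above every control library. The receptor phosphatase PTPRJ had little spread between knock-down libraries, at 24.2, 23.4 and 22.5 CPM against 1.98, 2.84 and 2.47 CPM in control cells (3.27, SE 0.15, adjusted p = 8.2e-07). TIMP3, an inhibitor of matrix proteases, was higher by 3.26, SYNE3, a protein of the nuclear envelope, by 3.43, and the amino acid transporter SLC6A14 by 3.07. JAK2, a kinase of cytokine receptors, stood at 0.902, 1.54 and 1.32 CPM in control and 8.22, 10.6 and 9.41 CPM in knock-down cells (2.91, SE 0.21). The remaining large rises were SEZ6L2 (2.90), BTBD11 (2.83), the transcription factor NFIB (2.82), the motor protein MYO10 (2.74), ANTXR2 (2.53), a receptor of anthrax toxin, and the Wnt antagonists DKK4 (2.72) and DKK1 (2.52). The DKK1 call (adjusted p = 0.0125) was lost without control replicate 1 or 3 (adjusted p of up to 0.065).

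By the same minimum level, the deepest falls were genes at or near 0 in knock-down cells. CCND2 (chromosome 12, 4273762 to 4305353), which encodes the cell cycle protein cyclin D2, stood at 31.6, 31.7 and 29.6 CPM in control and 0.0499, 0 and 0 CPM in knock-down cells. The 3 control libraries held 3826 counts and the knock-down libraries 2, both in replicate 1, a ratio of 1900. Its 95% counting interval of 526 to 15700 rests on the summed counts and leaves out the spread between libraries. In edgeR's test the adjusted p was 8.03e-07. CSAG1 stood at 14.9, 13.9 and 15.9 CPM in control and 0.125, 0.0961 and 0.146 CPM in knock-down cells (-6.90, SE 0.34, adjusted p = 1.25e-06). Its neighbour MAGEA12, like CSAG1 a cancer-testis antigen gene, stood at 26.0, 26.5 and 29.1 and 0.375, 0.432 and 0.243 CPM (-6.27, SE 0.27, adjusted p = 8.2e-07). The 2 genes lie on the X chromosome, 36 bp apart, and the CSAG1 promoter window shares 240 of its 300 bases with those of MAGEA12. It is shown for that reason, as chrX:152733672-152733971 on the minus strand with CpG dinucleotides, the sites of DNA methylation, in capitals.
CSAG1: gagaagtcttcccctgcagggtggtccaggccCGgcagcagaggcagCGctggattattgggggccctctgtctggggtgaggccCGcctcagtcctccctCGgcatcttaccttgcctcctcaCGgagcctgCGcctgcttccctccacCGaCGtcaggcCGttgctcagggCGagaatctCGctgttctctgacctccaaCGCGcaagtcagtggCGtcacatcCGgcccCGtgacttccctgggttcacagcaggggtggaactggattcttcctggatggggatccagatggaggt
The window held 16 CpG sites, against a median of 14 over all windows. Methylation was not measured.

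TTN, the giant muscle protein titin, stood at 134, 84.3 and 108 CPM in control and 4.47, 4.30 and 5.28 CPM in knock-down cells (-4.54, SE 0.36, adjusted p = 4.86e-05). CCDC141, 7555 bp from TTN, fell alongside it, from 14.6, 14.1 and 15.6 to 1.05, 1.71 and 1.80 CPM (-3.28, SE 0.26). Whether reads of neighbouring genes were shared between them was not tested. The sulfatase ARSI (-3.48), the sterol transport protein GRAMD1A (-3.09), the potassium channel partner KCNIP4 (-2.78) and the protease inhibitor SERPINE2 (-2.62) were lower, as were the podocalyxin gene PODXL (-2.34), the Rac activator TIAM1 (-2.33), CDH16 (-2.21), a cadherin, ITIH5 (-2.01) and MAMLD1 (-1.94). PLAU, the urokinase protease that TNFα is known to induce, stood at 117, 185 and 172 CPM in control and 19.7, 49.6 and 53.4 CPM in knock-down cells (-1.95, SE 0.38, adjusted p = 0.0107). MEST, an imprinted gene, was at 47.4, 62.1 and 60.3 and 8.77, 18.6 and 17.9 CPM (-1.91, SE 0.36). In both genes replicate 1 was the lowest library of its group.

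**Figure D3:**
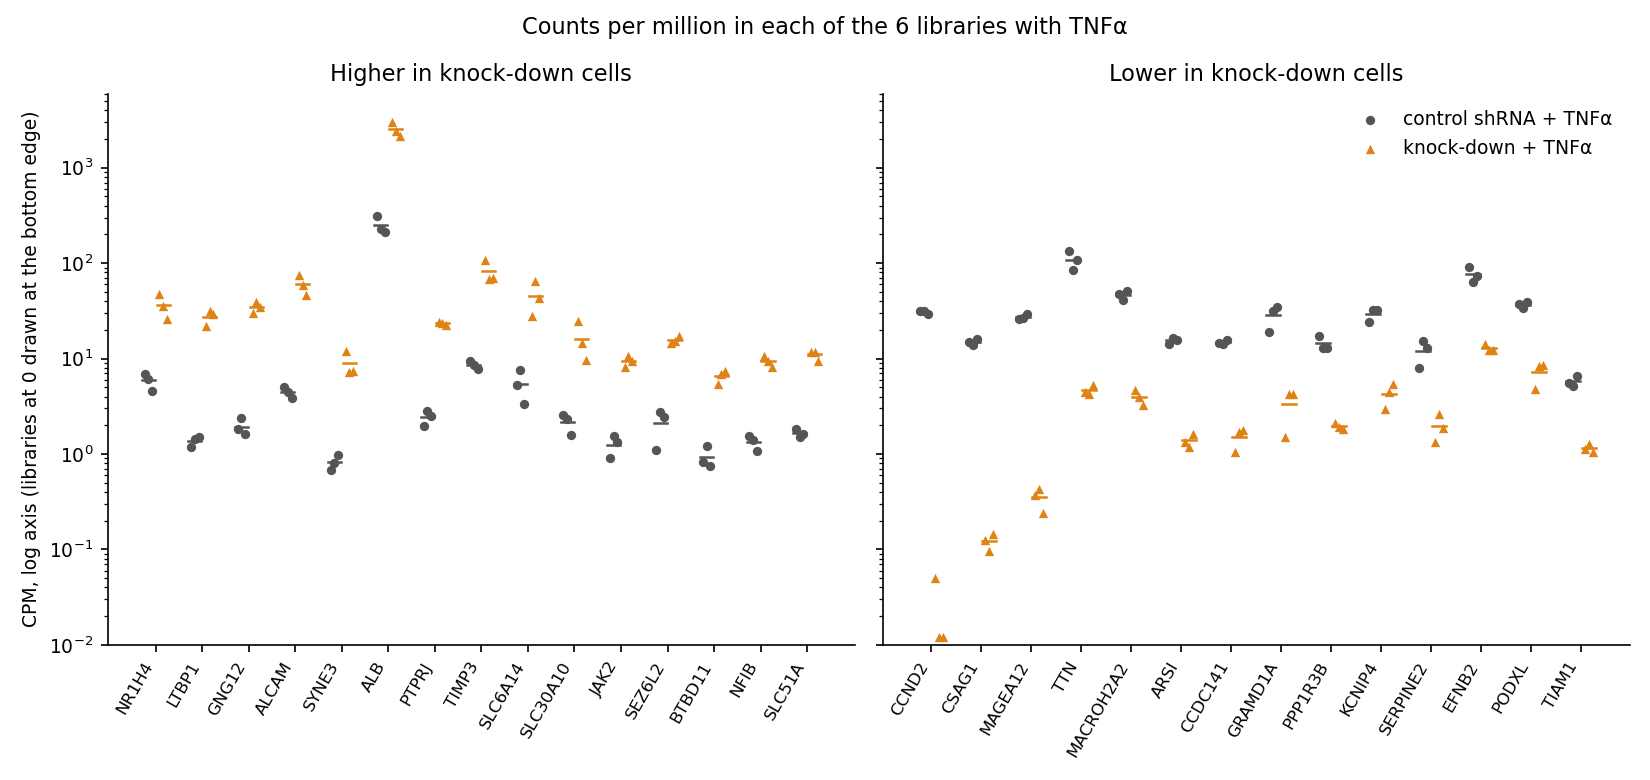
CPM on a log axis in each of the 6 libraries with TNFα for 15 of the genes higher and 14 of the genes lower in knock-down cells, with control libraries as grey circles, knock-down libraries as orange triangles and bars at the group means. Groups that do not overlap were a condition for choosing these genes, and 2 knock-down libraries of CCND2 at 0 are drawn at the bottom edge.

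In 3 lists of TNFα signalling and cytokine genes, 13%, 10.3% and 17.6% of tested members were called, against 6.24% of all tested genes. Of 23 tested genes for NF-kB subunits, inhibitors and feedback none was higher and 3 were lower (4 with the block, 1 outside the chromosome segments), with a median of -0.137. The median was -0.075 without knock-down replicate 1 and -0.235 without replicate 3, and 5 members were lower without DKD untreated replicate 1. The lower genes were CHUK (-0.75, SE 0.10) and IKBKB (-0.29, SE 0.07), which encode the kinases that release NF-kB, and N4BP1 (-0.74, SE 0.07), a negative regulator of NF-kB signalling. The IKBKB call (adjusted p = 0.0441) was lost in 11 of the 12 fits that left out 1 library, all but that without DKD untreated replicate 1 (adjusted p of up to 0.145). N4BP1 stood at 44.6, 45.3 and 46.1 CPM in control and 26.7, 27.0 and 28.0 CPM in knock-down cells. The classical target NFKBIA, which encodes the inhibitor of NF-kB, stood at 103, 136 and 124 and 102, 146 and 151 CPM with overlapping groups (0.13, SE 0.17). RELB (-0.02, SE 0.20) and TNFAIP3 (-0.10, SE 0.30) were not called either.

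Of 29 tested genes of TNF receptor signalling and cell death 2 were higher and 1 lower (5 higher and 6 lower with the block). The death ligand gene TNFSF10 (TRAIL) stood at 1.10, 0.318 and 0.600 CPM in control and 5.12, 3.56 and 3.91 CPM in knock-down cells (2.64, SE 0.41, adjusted p = 0.00302). The caspase inhibitor CFLAR was higher (0.60, SE 0.10), and BCL2L1, which encodes the survival protein BCL-XL, was lower at 396, 385 and 393 against 279, 269 and 276 CPM (-0.51, SE 0.08, adjusted p = 0.00363). Of 17 tested chemokine and cytokine genes 1 was higher and 2 lower (2 higher and 5 lower with the block). The lower ones, CCL15 (-0.31, adjusted p = 0.0427) and LTB (-1.81, adjusted p = 0.0481), each lost their call in 10 of the 12 fits that left out 1 library (adjusted p of up to 0.17 and 0.168). Without knock-down replicate 1 no member was lower, and the list's median turned from -0.077 to 0.174. CCL16, a liver chemokine, was the higher one at 18.1, 17.1 and 17.7 against 46.5, 35.8 and 39.9 CPM (1.21, SE 0.14). CXCL8, which encodes interleukin 8, varied more between replicates than between the lines, at 4.02, 42.6 and 20.4 CPM in control and 0.624, 31.1 and 28.6 CPM in knock-down cells. Relative to knock-down replicates 2 and 3, the members of the list had a median of -0.939 (log2) in knock-down replicate 1.

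Of 39 tested interferon-stimulated genes 2 were higher and 1 lower (8 and 4 with the block). IFIH1, a sensor of viral RNA, was among the higher ones (1.16, SE 0.17). Of 22 tested genes of MHC class I presentation 2 were lower and none higher (4 and 1 with the block), with the peptidase ERAP2 at 84.4, 80.0 and 76.7 CPM in control and 54.6, 52.4 and 51.1 CPM in knock-down cells (-0.61, SE 0.11, adjusted p = 0.0068). Among genes of IL-6 type cytokine receptors and STAT3 signalling, OSMR, the receptor gene of oncostatin M, was higher at 47.6, 55.3 and 45.2 against 115, 107 and 101 CPM (1.13, SE 0.14), and the interleukin 22 receptor gene IL22RA1 by 1.33 (SE 0.19). IL6R was lower (-0.79, SE 0.19, adjusted p = 0.0294), a call lost without CTL untreated replicate 3, control replicate 2 or 3, or knock-down replicate 1 or 2 (adjusted p of up to 0.132). With JAK2, 3 of 19 tested members were higher and 1 lower. In the lists of interferon, MHC class I and IL-6 type genes 7.69%, 9.09% and 21.1% were called, against 6.24% of all tested genes.

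Surface and matrix genes also moved in both directions. The lists of adhesion, matrix and ephrin genes had 30.8%, 18.9% and 17.2% of tested members called, against 6.24% of all tested genes. Of 39 tested adhesion and integrin genes 6 were higher and 6 lower (9 and 7 with the block), and 3 were higher without any 1 control library. Among 37 tested genes of the matrix and its proteases 5 were higher and 2 lower (7 and 8 with the block). SPARC, a matrix-binding glycoprotein, stood at 33.8, 35.1 and 34.0 CPM in control and 119.7, 123 and 121 CPM in knock-down cells (1.82, SE 0.19, adjusted p = 0.000302). The collagen crosslinking enzyme LOX was higher by 2.24 (SE 0.23), while NECTIN3, a protein of cell junctions, was lower (-0.66, SE 0.10). Of 29 tested ephrin, Eph receptor, semaphorin and plexin genes 2 were higher and 3 lower (4 and 8 with the block). The ligand gene EFNB2 stood at 92.1, 63.4 and 73.0 CPM in control and 14.2, 12.3 and 12.4 CPM in knock-down cells (-2.55, SE 0.16, adjusted p = 1.43e-05), and the receptor gene EPHA1 was higher (2.23, SE 0.33). The axon guidance gene SEMA3A was lower (-1.46, SE 0.23).

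Of 36 tested receptor tyrosine kinase and phosphatase genes 6 were higher and 2 lower (8 and 6 with the block), including the phosphatase PTPRU (1.45, SE 0.11) and the Wnt5a receptor ROR1 at 3.10, 2.42 and 2.52 CPM in control and 20.0, 13.6 and 12.3 CPM in knock-down cells (2.51, SE 0.27, adjusted p = 0.000339). Of 26 tested Wnt and beta-catenin genes 4 were higher and 1 lower (6 and 7 with the block), and 2 were higher without control replicate 1 or 3. Besides DKK1 and DKK4 the receptor gene FZD4 was higher (0.90, SE 0.11), and NKD1, a feedback inhibitor of Wnt signalling, was lower at 315, 296 and 329.5 against 209, 211 and 236 CPM (-0.52, SE 0.09). Of 30 tested TGF-beta and BMP genes 4 were higher and 1 lower (8 and 7 with the block), and 2 were higher without control replicate 3 or knock-down replicate 1. The TGF-beta receptor gene TGFBR2 was lower (-0.37, SE 0.06) and BMP8B, a growth factor gene of the BMP family, higher (1.08, SE 0.18). In the receptor, Wnt and TGF-beta lists 22.2%, 19.2% and 16.7% of tested members were called, against 6.24% of all tested genes.

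Of 40 tested cell cycle genes, 26 of them with a difference above 0, only the phosphatase CDC25C was called, higher by 0.46 (adjusted p = 0.0433), and that call was lost in 11 of the 12 fits that left out 1 library, all but that without DKD untreated replicate 1 (adjusted p of up to 0.196). With the block 1 member was higher and 3 lower, and with replicate numbers 2 and 3 alone 8 were higher and none lower, with a median of 0.214 against 0.054. MKI67, the proliferation marker, stood at 683, 412 and 527 CPM in control and 404, 338 and 361 CPM in knock-down cells, without overlap (-0.56, SE 0.16, adjusted p = 0.063, or 0.0026 with the block). Of 28 tested p53 targets and cell cycle inhibitors 2 were higher and 1 lower (7 and 4 with the block), and CDKN2A, which encodes the inhibitor p16, was low and lower still in knock-down cells at 1.37, 2.69 and 2.88 against 0.325, 0.649 and 0.729 CPM (-2.02, SE 0.37, adjusted p = 0.00798). Of 40 tested Polycomb, DNA methylation and heterochromatin genes 2 were called (3 higher and 3 lower with the block). Called shares were 2.5% of the cell cycle, 10.7% of the p53 and 5% of the Polycomb list, against 6.24% of all tested genes. BMI1 of Polycomb complex PRC1 was higher (0.68, SE 0.13) and the histone deacetylase HDAC2 lower (-0.36, SE 0.07). Neither list of ADP-ribose and NAD genes (25 tested) and mitochondrially encoded genes (13 tested) had a called member, and with the block the first had 3 higher and 1 lower and the second none. PARP1, whose product makes the ADP-ribose polymers that macro domains can bind, stood at 245, 276 and 293 CPM in control and 199.9, 318 and 325 CPM in knock-down cells.

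Differences also followed chromosome position. Of the tested genes 14992 were placed on RefSeq GRCh38.p14, and runs of 10 Mb windows with at least 15 tested genes and a median difference of at least 0.25 in either direction were taken as segments, a rule chosen after the chromosome medians were seen. On the long arm of chromosome 2, from 90 Mb to the end, 603 tested genes had a median of 0.387, and 86.9% lay above 0. Relative to the mean of the control libraries, the median of these genes was 0.36 to 0.402 in the knock-down libraries and -0.044 to 0.028 in the control libraries. Of them 162 were called higher (26.9%) and 8 lower (1.33%), against 3.94% and 2.3% of all tested genes. On the tip of chromosome 9 (0 to 20 Mb) 51 tested genes had a median of 0.685, with 22 called higher and 1 lower. On the end of chromosome 10 (from 100 Mb) 170 tested genes had a median of -0.492, with 3 called higher and 63 lower. A run of 17 genes on chromosome 4 (60 to 70 Mb) met the rule with a median of 0.329, with 1 member called.

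The libraries without TNFα, which are separate libraries of the same lines, gave medians of 0.385, 0.648 and -0.479 for the segments of chromosomes 2, 9 and 10. The other 14133 placed genes had a median of -0.007. The 4 segments held 5.22% of the tested genes, 29.6% of those called higher and 19.5% of those called lower. Among genes described above, PROC, CYP27A1, CFLAR and IFIH1 lie in the chromosome 2 segment, JAK2 and NFIB in that of chromosome 9, and SCD and CHUK in that of chromosome 10. TTN, CCDC141 and SERPINE2 were lower although they lie in the chromosome 2 segment. Of the 40 largest rises and falls 5 lie in a segment. Outside the segments, with p-values adjusted over those genes, 392 genes were higher and 258 lower. The number of DNA copies was not measured, and its part in these differences was not tested.

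**Figure D4:**
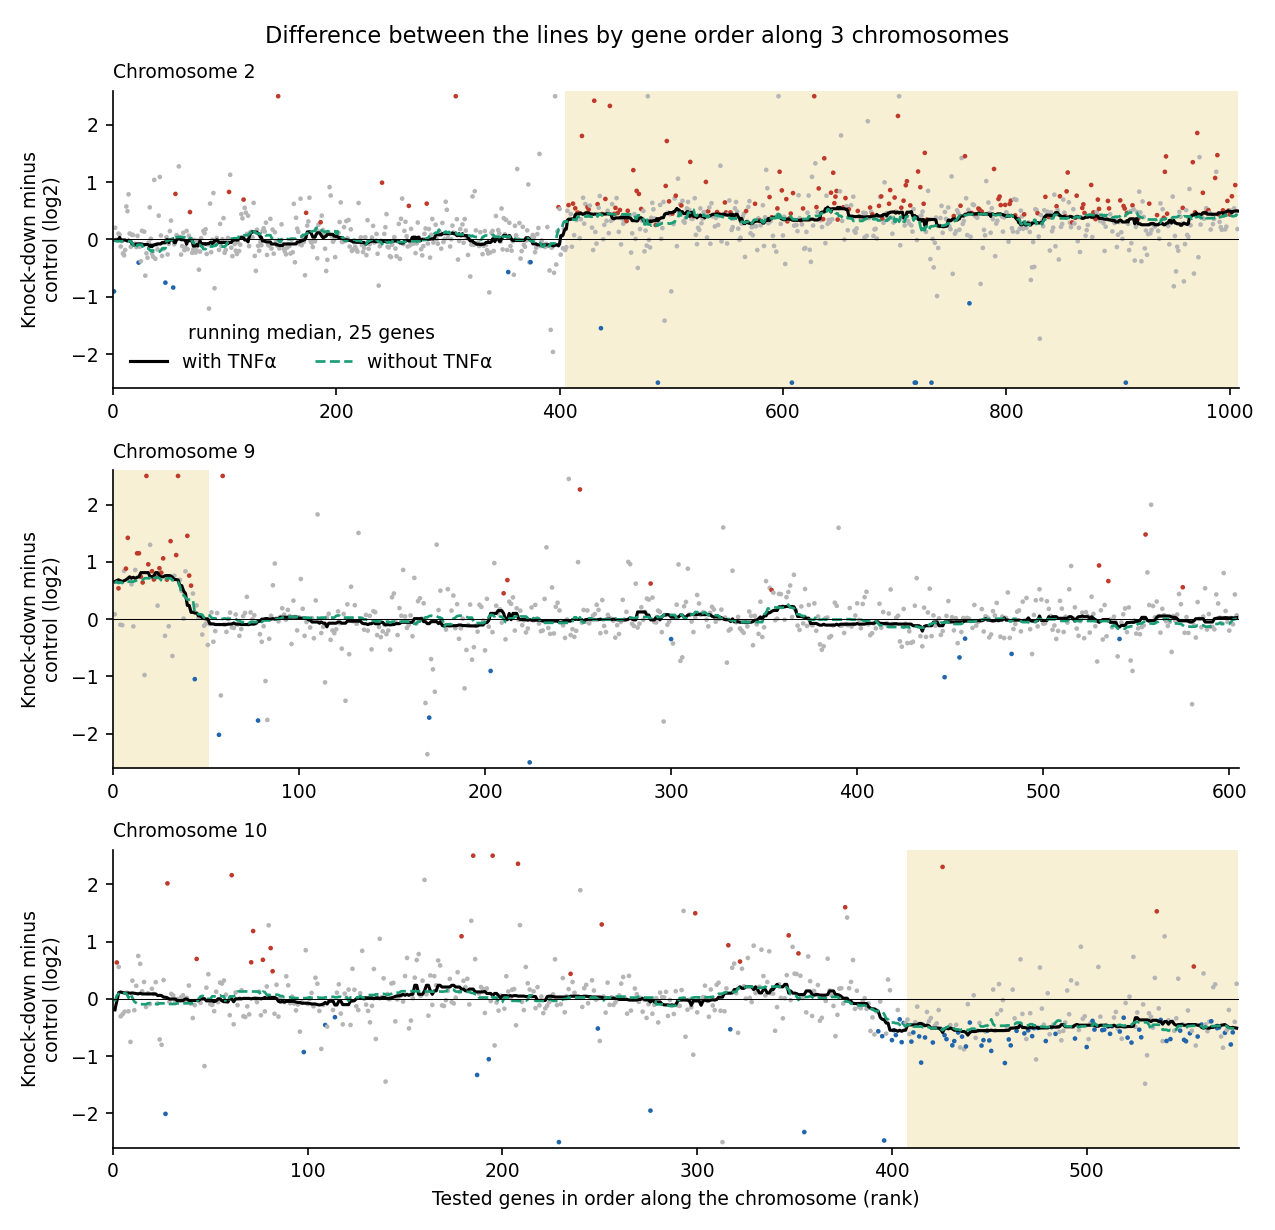
Difference between knock-down and control cells (log2, vertical axes, values beyond 2.5 drawn at the edge) for tested genes in order along chromosomes 2, 9 and 10, with red points called higher and blue points called lower with TNFα and the segments shaded. The running median over 25 genes with TNFα (black) and without it (green, dashed) steps up in the shaded parts of chromosomes 2 and 9 and down in that of chromosome 10.

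With edgeR no difference between the lines was called as dependent on TNFα. Of the 1005 called genes 998 had the same sign between the untreated lines. No share over all tested genes is set beside that count, so it is descriptive only. Called in both comparisons were 415 higher and 245 lower genes, with none in opposite directions. Between the untreated lines 3.13% of tested genes were called higher and 1.86% lower. Both comparisons come from 1 fit with 1 spread per gene, though they share no library. The test of the difference between the comparisons, an interaction term in the same fit, called no gene (0% of 16118, smallest adjusted p = 0.821). At an unadjusted p under 0.05 it had 184 genes, fewer than the 805.9 that 5% of the tested genes would make. With so few small p-values the test was conservative and could miss real differences. Its lack of calls therefore does not show that no difference depends on TNFα. With the block the interaction test called none and had 556 genes at an unadjusted p under 0.05. On the interaction limma called none (190 at that level), and DESeq2 called 5 (211 at that level), which were CRYAA, RPL37P6, TBC1D3D and 2 genes without a symbol.

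The bile acid receptor gene, SLC30A10 and several other genes had a larger fitted difference with TNFα than without it. NR1H4 was higher by 2.62 with and 1.62 without TNFα, a difference of 1.004 (SE 0.31), and SLC30A10 by 2.91 and 1.71, a difference of 1.197 (SE 0.43). DKK4 was higher by 2.72 and 1.37, HP by 1.69 and 0.98, CYP4F12 by 1.77 and 0.86 and PHGDH by 0.69 and 0.23. FGB went the other way, at 1.97 with and 3.10 without TNFα. None of these 7 genes passed edgeR's interaction test after Benjamini-Hochberg adjustment (adjusted p = 0.99997 for each), and they were chosen after their values were seen. Of the 137 named genes 11 had an unadjusted interaction p under 0.05, the others being BCL2L1, PTPRU, CYP27A1 and PSAT1. Over all 16118 tested genes 184 had such a p in the same test. Most named genes were chosen for their difference with TNFα, which is itself part of the interaction. The count of 11 therefore cannot show that their differences depend on TNFα.

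**Figure D5:**
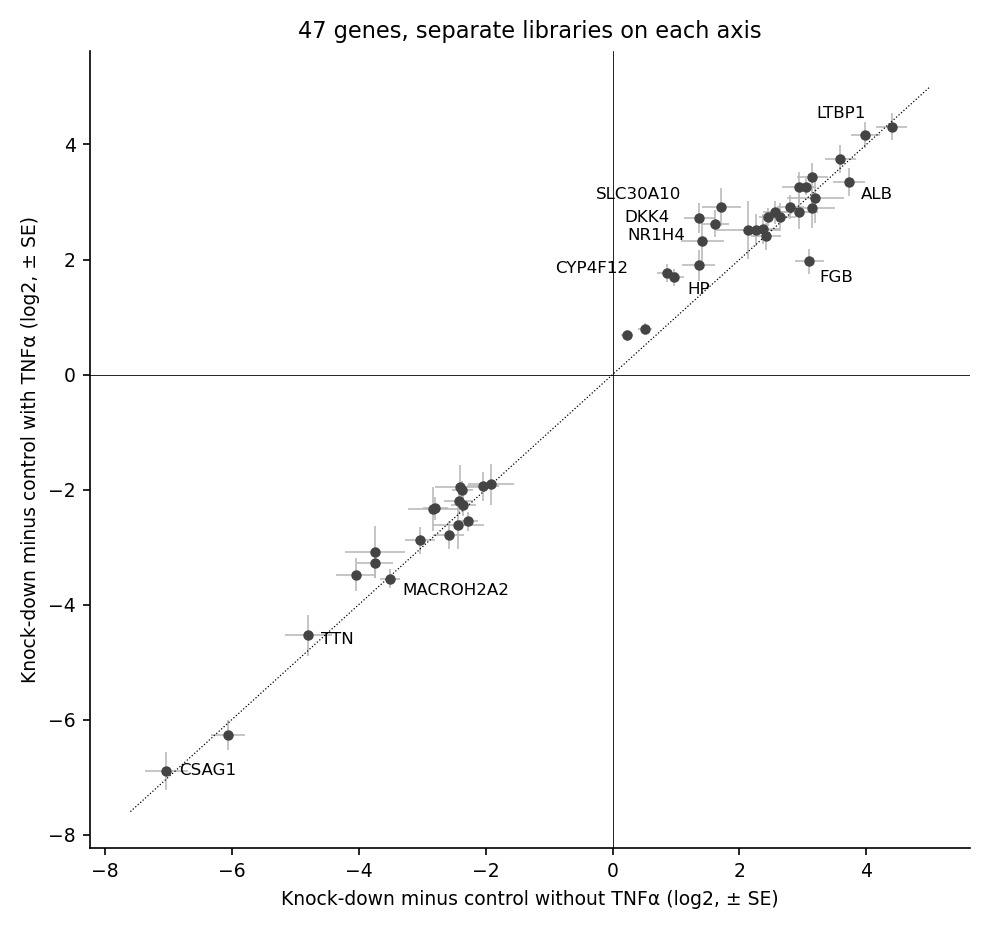
Difference between knock-down and control cells with TNFα (vertical axis) against that without it (horizontal axis), log2 with SE bars, for 47 genes: 39 of the largest rises and falls with TNFα (all but CCND2) and 8 further list members picked after their values were seen. The points lie near the dotted line of equality, with SLC30A10, DKK4, NR1H4, HP and CYP4F12 above it and FGB below.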

How the data were processed

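The series holds RNA-seq of total RNA from 12 libraries in 4 groups of 3, all used in the fit. The authors deposited estimated counts per gene, which were whole numbers as deposited, and a normalised signal that equalled the counts divided by 1 size factor per library. The tools named per the submitters' processing notes are Salmon 0.14.0, CASAVA 1.7 and DESeq2, with GRCh38 (hg38). The annotation, strand setting and summing of transcripts per gene are not given there or in the labels. Every column matched a sample by its name, and 0 columns were left unused.

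Counts were fitted with edgeR 4.0.16 in R 4.3.3 (TMM factors, filterByExpr with a minimum count of 10 and a minimum total of 15, quasi-likelihood test, 4 group means over all 12 libraries), and p-values were adjusted by Benjamini-Hochberg over 16118 genes. CPM were computed on TMM-scaled library sizes, and log2 CPM used a prior count of 2. The interaction term is the difference with TNFα minus that without it. DESeq2 1.42.0 and limma 3.58.1 (pseudocount of 1 on the normalised values) served as alternatives. Scripts were tested on simulated data.

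Named genes were the 2 targets, NR1H4 and SLC30A10, the 20 largest rises and 20 largest falls among called genes with separate groups, a mean log2 CPM of 2 or more and a symbol that is no clone or locus name, and up to 4 called members of each of 42 lists, with up to 2 of a list without any. Some members of the lists are not reported here. The members and lists were chosen with earlier results of these data known. Replicates with equal numbers deviated together (correlations of 0.505, 0.262 and 0.328 between the control and knock-down libraries with TNFα). Between replicates 2 and 3 the correlations were 0.12 and 0.135, and between replicate 1 and either of them -0.4 to -0.271. The numbers were used as a block in alternative fits only, and the main fit, with its SE and adjusted p, held no block. Apart from these numbers the labels give no source of a pairing.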

Additional observations from a re-analysis of the deposited data

How the results depend on the processing

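Against 635 genes higher and 370 lower, the replicate block gave 1716 and 1417, and 1721 and 1426 in the 6 libraries with TNFα alone. Replicate numbers 2 and 3 alone gave 1384 and 991, and DESeq2 gave 1005 and 710. At least a 2-fold difference was met by 254 and 96 genes, and an adjusted p under 0.01 by 305 and 170. Outside the chromosome segments, an alternative chosen after seeing the data, 392 were higher and 258 lower. Leaving out 1 library gave 351 (without control replicate 3 with TNFα) to 944 (without DKD untreated replicate 1) higher and 213 (without control replicate 2) to 601 (without DKD untreated replicate 1) lower genes. The other alternatives, which were the 6 libraries alone, RLE or upper quartile factors, no filter on low counts and limma, gave 532 to 663 higher and 279 to 387 lower. The share of higher genes among calls ran from 54.7% to 72.6% around 63.2%, and no shared call changed direction. For the interaction DESeq2 called 5 genes, and leaving out 1 library gave 0 to 1, with the 1 call without CTL untreated replicate 2. Of 129 called named genes 95 stayed past the threshold in every alternative but the stricter cutoffs, 34 were lost in at least 1, and none reversed. The block over all 12 libraries ended none of these calls, and with the 6 libraries alone it kept 998 of the 1005 calls, NLRC5 among those lost. With 3 libraries a group, differences smaller than the spread between libraries were not detectable.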
